A study of Mus musculus with 6 samples.

Results

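The 7 genes described here present antigen on MHC class II: H2-Ab1, H2-Aa, H2-Eb1, Cd74, H2-DMa, H2-DMb1 and Ciita. They were taken as a named set, and every probe set annotated to one of these symbols alone was used. That gave 14 probe sets for 6 of the 7 genes, out of 34945 single-gene probe sets for 18193 genes. H2-Aa had 4, H2-Ab1 and Ciita 3 each, H2-DMa 2, and H2-Eb1 and Cd74 1 each. H2-DMb1 had 0 of its own, because the 2 probe sets that read it are shared with H2-DMb2, and no value is given for it.

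RNA came from mammary glands of Elf5 KO mice and wild-type mice, 3 biological replicates each, on 1 array each. The sample labels put all 6 at pregnancy day 17 and the series' design text puts them at lactation day 1, so the stage is not settled. Elf5, an ETS family factor, is made in luminal cells of the gland. The labels name no Elf5 allele, Cre driver, strain, age or litter, and do not say whether glands were pooled. A gland mixes epithelium, fat, stroma, vessels and resident immune cells, so more cells of a type and more RNA per cell cannot be told apart. Epcam, Krt8, Krt18 and Krt19, markers of luminal epithelium, had mean signals of 2964 to 4800 in KO and 3069 to 3855 in wild type. Other luminal markers went both ways. Cldn7 averaged 1064 in KO and 2348 in wild type, and Cldn3 899 and 1668. Cdh1 averaged 1509 in KO and 765 in wild type, and Ehf 1200 and 938.

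MHC class II molecules are pairs of an alpha and a beta chain that carry peptides from ingested protein to the surface of B cells, dendritic cells and macrophages, where CD4+ T cells read them. In mice the I-A pair is made from H2-Aa and H2-Ab1, and the beta chain of I-E from H2-Eb1. Cd74, the invariant chain, guards the groove until the endosome, where the H2-DM pair exchanges its remnant for peptide. Ciita is the coactivator that switches these genes on together, and other cells, epithelium among them, can be induced to make it by interferon-gamma. It is held at the promoter by factors bound to a conserved module, the X box with the Y box downstream of it.

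Promoters are shown because Ciita acts on these genes through this shared module. RefSeq promoter sequences (GRCm38.p6) held entries for 4 of the 7 genes: H2-Aa, H2-Eb1, H2-DMa and H2-DMb1. The search, whose letters were chosen after these sequences had been read, looked on both strands for GNAAC, the core of the X box, followed after 15 to 30 bases by TGATTGG, the Y box with its inverted CCAAT. The motifs do not overlap. This arrangement occurred in 154 of 32851 promoter windows of the same length (0.469%), and TGATTGG alone in 7.82%. It was found in H2-Aa, H2-Eb1 and H2-DMb1, and these letters were in neither window of H2-DMa. Below are the 250 bases upstream of each start site, 5′ to 3′ on the gene's own strand, with both elements in capitals. The H2-Aa sequence is chr17:34287824-34288073 on the minus strand, H2-Eb1 is chr17:34305617-34305866 on the plus strand, and H2-DMb1 is chr17:34152941-34153190 on the plus strand.
H2-Aa: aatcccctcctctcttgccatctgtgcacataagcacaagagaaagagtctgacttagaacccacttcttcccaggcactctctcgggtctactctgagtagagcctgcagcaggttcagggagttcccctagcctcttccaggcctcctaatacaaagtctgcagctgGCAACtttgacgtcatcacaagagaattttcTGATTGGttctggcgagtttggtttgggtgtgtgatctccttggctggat
H2-Eb1: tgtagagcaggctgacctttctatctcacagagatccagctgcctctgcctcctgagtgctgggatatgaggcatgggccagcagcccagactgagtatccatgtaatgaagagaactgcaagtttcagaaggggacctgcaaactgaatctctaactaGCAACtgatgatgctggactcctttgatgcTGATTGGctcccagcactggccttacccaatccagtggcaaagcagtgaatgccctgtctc
H2-DMb1: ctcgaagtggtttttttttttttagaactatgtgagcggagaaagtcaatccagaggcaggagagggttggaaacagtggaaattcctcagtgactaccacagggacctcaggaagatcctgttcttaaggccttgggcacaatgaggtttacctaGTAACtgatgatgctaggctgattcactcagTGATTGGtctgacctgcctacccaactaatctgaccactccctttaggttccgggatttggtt
The gap between the elements was 26, 25 and 26 bases in H2-Aa, H2-Eb1 and H2-DMb1, and TGATTGG began 50, 61 and 63 bases upstream of the start site. Among 4 other class II genes with an entry, H2-Oa, H2-Ob and H2-Eb2 held the pair, and H2-DMb2 held TGATTGG alone.

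The arrays differed in a measure of RNA quality, the signal of a control transcript's 3′ end over that of its 5′ end. For Gapdh this was 0.802, 3.89 and 13.6 in KO arrays 1, 2 and 3, against 1.09, 0.833 and 0.876 in wild-type arrays 1, 2 and 3. For Actb it was 1.58, 1.87 and 21.0 in the KO arrays and 2.04, 1.20 and 1.84 in wild type, in the same order. KO array 1 is thus the only KO array with both ratios inside or below the wild-type range. Its values against wild type are given below beside those of all 3 KO arrays, with no test of their own. As a check of the labels, the brighter Elf5 probe set averaged 4368 ± 1244 in KO and 9099 ± 2553 in wild type (SD, n = 3 each), without overlap, though it did not pass the test (limma adjusted p = 0.168).

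Most class II probe sets had a higher signal in Elf5 KO glands, but none passed the test across the table. Of the 14, 12 had a higher mean in KO on the log2(signal + 16) scale, which every mean direction below uses. In 5, each KO array exceeded each wild-type array. These 5 belonged to H2-Ab1, H2-Aa (2 probe sets), H2-Eb1 and Cd74, and their mean signals were 1.91 to 2.64 times those of wild type. Over all 34945 single-gene probe sets 9.59% were higher without overlap, and 35.7% of the members were. The other direction, lower without overlap, held for 0 members and for 12.7% of all. The median log2 difference of the 14 was 0.52, against -0.11 over all single-gene probe sets.

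By limma with Benjamini-Hochberg adjustment, 0 of the 12 tested members passed, as did 0 of all 20967 probe sets tested (0%). Adjusted p-values of the members ran from 0.131 to 0.925, and the lowest of any probe set was 0.0780. At an unadjusted p under 0.05 there were 5 members, all higher, and 3858 probe sets in all (18.4%), of which 1963 were higher (9.36% of those tested). With 1 probe set per gene, limma called 119 of 10917 genes (1.09%), again with 0 members, whose lowest adjusted p was 0.0651. With the replicate number as a block limma called 1 probe set of 20967 (0.00477%), which was no member, and the lowest adjusted p of a member was 0.0610.

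**Figure D1:**
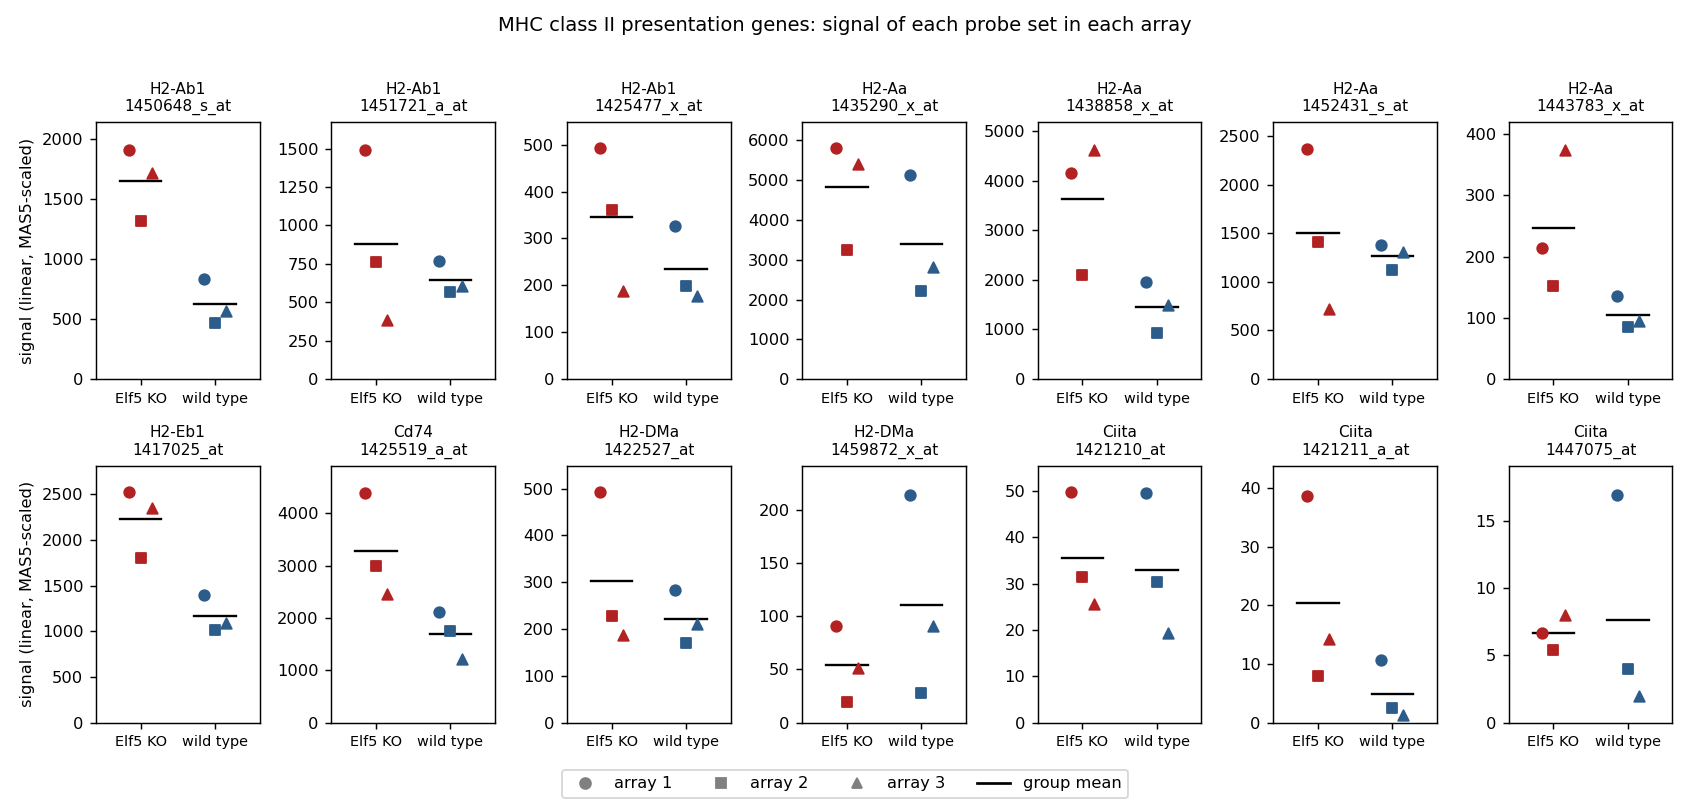
Linear signal (y axis, from 0, a scale of its own in each panel) of the 14 probe sets in 3 Elf5 KO arrays (red, left) and 3 wild-type arrays (blue, right); symbols give the array number and bars the group mean. The groups stand apart for H2-Ab1 1450648_s_at, H2-Aa 1438858_x_at and 1443783_x_at, H2-Eb1 and Cd74, and overlap in the other 9 panels.

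H2-Ab1, the beta chain of I-A, was read by 3 probe sets that disagreed in size. Probe set 1450648_s_at had signals of 1908, 1317 and 1716 in KO arrays 1, 2 and 3, against 835, 468 and 567 in wild-type arrays 1, 2 and 3. The suffix of this probe set marks probes shared among transcripts. Every KO array lay above every wild-type array, and the difference, 1.40 ± 0.32 on the log2(signal + 16) scale (SE, n = 3 each), was the largest of the members (limma adjusted p = 0.131). It was 1.18, 1.46 and 1.57 between arrays of number 1, 2 and 3.

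Probe set 1451721_a_at of H2-Ab1 read 1493, 763 and 383 in the KO arrays, against 769, 564 and 603 in wild type. KO array 1 was far above wild type, KO array 2 just below the highest wild-type array, and KO array 3 below all 3. The log2 difference was 0.24 ± 0.47 (SE, adjusted p = 0.781). Probe set 1425477_x_at, whose suffix marks possible cross-hybridisation, read 492, 360 and 187 in the KO arrays, against 327, 198 and 178 in wild type. KO arrays 1 and 2 were above all wild-type arrays and KO array 3 was within them, for a difference of 0.48 ± 0.42 (SE, adjusted p = 0.524). It was 0.19 without KO array 1 and 0.85 without KO array 3.

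The 3 H2-Ab1 probe sets thus agreed in KO array 1 and parted in KO array 3. In KO array 1 they stood at 3.06, 2.31 and 2.10 times their wild-type means, in the order just given, or 1.63, 1.20 and 1.07 on the log2 scale. In KO array 3 they stood at 2.75, 0.593 and 0.797 times those means. The log2 ratio of 1451721_a_at to 1450648_s_at was -0.35, -0.77 and -2.12 in KO arrays 1, 2 and 3, and -0.12, 0.26 and 0.09 in wild type. The groups did not overlap in this ratio (difference -1.16, two-sided exact permutation p = 0.1, the smallest that 3 against 3 arrays allow; adjusted p = 0.2 over the 6 within-gene pairs compared).

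The ratio of 1425477_x_at to 1450648_s_at differed likewise by -0.92 (exact permutation p = 0.1, adjusted p = 0.2). KO arrays 2 and 3 are those with raised Gapdh ratios. When the log2 Gapdh ratio entered limma as a covariate, the KO differences of the 3 probe sets were 1.45, 1.11 and 1.05, none of them passing (adjusted p = 0.400, 0.480 and 0.603). The ratio ran from 0.802 to 13.6 in the KO arrays and from 0.833 to 1.09 in wild type. The covariate's slope was thus set mostly by the KO arrays, and these differences are not independent of those of KO array 1. The position of each probe set along the transcript was not used here, and the part of RNA quality in their disagreement was not tested.

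**Figure D2:**
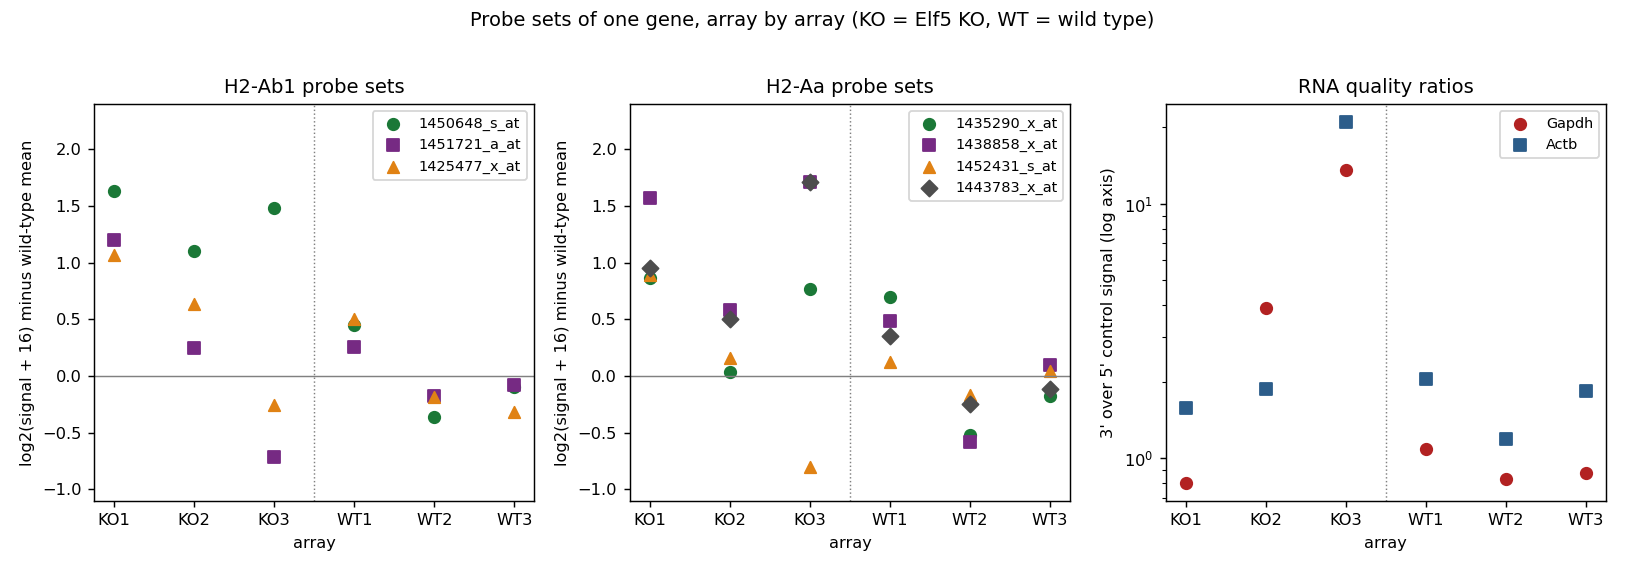
Left and centre, log2(signal + 16) of each H2-Ab1 and H2-Aa probe set minus its wild-type mean (y axis) in each array (x axis; Elf5 KO left of the dotted line, wild type right); right, the 3′ over 5′ ratios of Gapdh and Actb on a log axis. In KO3, where the ratios are 13.6 and 21.0, H2-Ab1 1451721_a_at and H2-Aa 1452431_s_at lie below the wild-type mean while H2-Ab1 1450648_s_at and H2-Aa 1438858_x_at lie above it.

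H2-Aa, the alpha chain that pairs with H2-Ab1, was read by 4 probe sets. Probe set 1438858_x_at read 4159, 2092 and 4611 in the KO arrays, against 1959, 923 and 1493 in wild type. The groups did not overlap, though KO array 2 was close to wild-type array 1, and the log2 difference was 1.29 ± 0.40 (SE, adjusted p = 0.180). Probe set 1443783_x_at read 214, 153 and 374 in the KO arrays, against 136, 84.4 and 94.0 in wild type, again without overlap (1.06 ± 0.38, adjusted p = 0.217).

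The other H2-Aa probe sets overlapped between the groups. Probe set 1435290_x_at read 5802, 3253 and 5405 in the KO arrays, against 5143, 2205 and 2816 in wild type, with wild-type array 1 among the KO values (0.56 ± 0.38, adjusted p = 0.428). Its difference was 0.90 without wild-type array 1 and 0.29 without wild-type array 2. Probe set 1452431_s_at read 2364, 1409 and 718 in the KO arrays, against 1375, 1126 and 1302 in wild type (0.08 ± 0.42, adjusted p = 0.925). Its KO values followed the same order as those of H2-Ab1 1451721_a_at, highest in array 1 and below all wild-type arrays in array 3.

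In KO array 1 the 4 H2-Aa probe sets all exceeded every wild-type array, and lay 0.87, 1.57, 0.95 and 0.90 above the wild-type mean on the log2 scale for 1435290_x_at, 1438858_x_at, 1443783_x_at and 1452431_s_at. Against 1435290_x_at, the log2 ratio differed between groups by 0.73 for 1438858_x_at (exact permutation p = 0.1, adjusted p = 0.2), 0.50 for 1443783_x_at (exact permutation p = 0.2, adjusted p = 0.24) and -0.47 for 1452431_s_at (exact permutation p = 0.5, adjusted p = 0.5). The suffixes of all 4 mark probes shared among transcripts or open to cross-hybridisation.

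H2-Eb1, the beta chain of I-E, was read by a single probe set. It read 2530, 1798 and 2354 in the KO arrays, against 1394, 1009 and 1093 in wild type. All KO arrays were above all wild-type arrays, with a log2 difference of 0.92 ± 0.29 (SE, adjusted p = 0.178). The difference was 0.85, 0.82 and 1.10 between arrays of the same number, and 1.12 for KO array 1 against wild type.

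Cd74, the invariant chain, read 4391, 2995 and 2461 in the KO arrays, against 2118, 1754 and 1222 in wild type. The groups did not overlap, and the means were 3282 ± 997 in KO and 1698 ± 451 in wild type (SD, n = 3 each). The log2 difference was 0.94 ± 0.33 (SE, adjusted p = 0.212), and between arrays of the same number it was 1.05, 0.77 and 1.00. Unlike H2-Eb1, Cd74 was lowest among KO arrays in array 3.

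H2-DMa, the alpha chain of the peptide exchange factor, gave 2 probe sets of opposite direction. Probe set 1422527_at read 492, 229 and 188 in the KO arrays, against 282, 171 and 211 in wild type: KO array 1 stood alone above wild type, and arrays 2 and 3 lay among the wild-type values (0.33 ± 0.41, SE, adjusted p = 0.656). Its difference was 0.93 once the Gapdh covariate was in the fit (limma adjusted p = 0.641), and KO array 1 exceeded wild type by 1.12. These values are not independent, because the covariate's slope was set mostly by the KO arrays. Probe set 1459872_x_at read 90.9, 19.7 and 51.4 in the KO arrays, against 214, 27.4 and 91.3 in wild type, a difference in the other direction with the widest error of the members (-0.69 ± 0.63, adjusted p = 0.547). It was -0.10 without wild-type array 1 and -1.31 without wild-type array 2.

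Ciita was dim. Its brightest probe set, 1421210_at, had a mean signal of 34.4, just over the filter of 31.5, and read 49.9, 31.5 and 25.6 in the KO arrays, against 49.6, 30.3 and 19.3 in wild type. Arrays of the same number lay close together, and the difference was 0.09 ± 0.36 (SE, adjusted p = 0.899). The other 2 lay under the filter and were not tested. Of these, 1421211_a_at, with a mean of 12.6, read 38.7, 7.9 and 14.3 in the KO arrays and 10.7, 2.5 and 1.2 in wild type. The dimmest, 1447075_at, read 5.4 to 8.0 in the KO arrays and 2.0 to 17.0 in wild type. Both probe sets under the filter overlapped between groups, and signals this near the bottom of the range are imprecise.

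**Figure D3:**
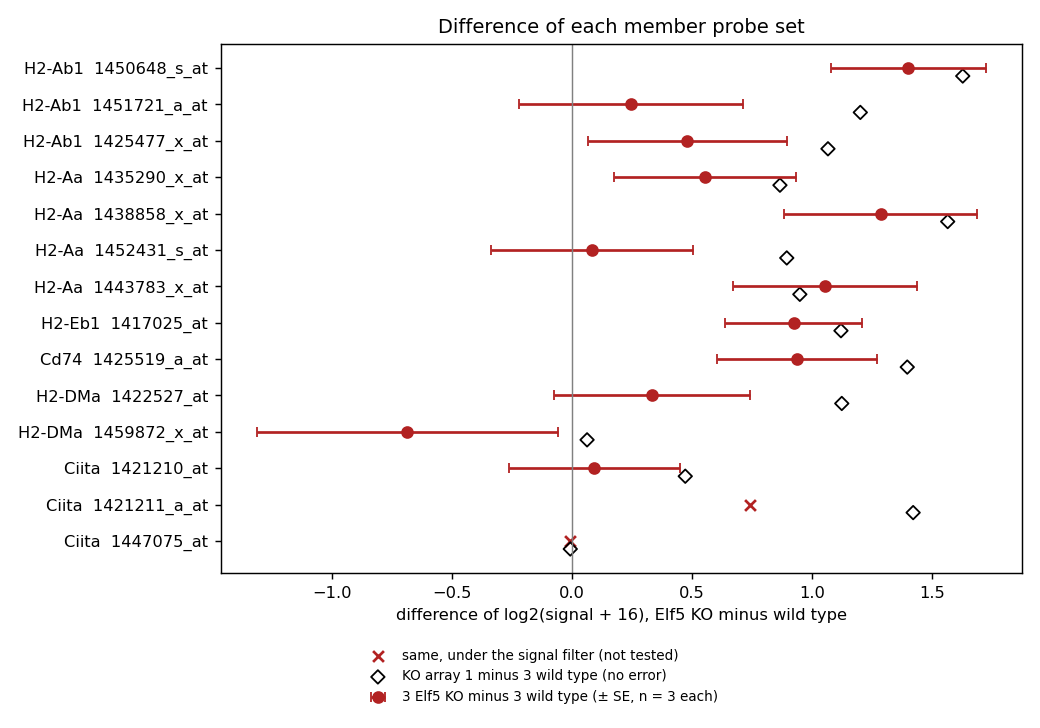
Difference of log2(signal + 16), Elf5 KO minus wild type (x axis), for each member probe set: filled points use all 6 arrays with limma's SE (n = 3 each), crosses mark probe sets under the signal filter, and open diamonds are KO array 1 minus the 3 wild-type arrays. Filled points run from -0.69 to 1.40, and the diamonds lie right of 0 for 13 of the 14.

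Single arrays shaped the set. KO array 1 was above all 3 wild-type arrays in 12 of the 14 probe sets, where 23.9% of all single-gene probe sets were, and was the highest of the 6 arrays in 10 (12.3% of all). KO arrays 2 and 3 were each above all wild-type arrays in 7 (27.8% and 26.4% of all). KO array 3 was below all wild-type arrays in 2, where 45.5% of all single-gene probe sets were. Among wild-type arrays, array 1 was the highest in all 14, as it was in 40.8% of all probe sets. The median difference over the 14 was 1.09 for KO array 1 against wild type, where the median over all probe sets tested was -0.00. Without KO array 1 the median of the 14 was 0.29, limma called 889 of 20967 probe sets (4.24%; 369 higher and 520 lower), and 0 members passed, with a lowest adjusted p of 0.0775. Its 2 KO arrays have Gapdh ratios above every wild-type array, so that in it KO and the ratio cannot be told apart.

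The class II genes lie in a stretch of chromosome 17 together with genes of other function, which gives neighbours read on the same arrays. In RefSeq order from H2-K1 to H2-Ea there are 10 class II genes, H2-Ea among them, and 11 other genes. Of the class II genes 8 had a tested probe set: 13 of 16 probe sets had a higher KO mean and 7 were higher without overlap, with a median difference of 0.74. These 16 include the probe sets of H2-Ab1, H2-Aa, H2-Eb1 and H2-DMa given above, so the count mostly repeats them. The rest are H2-Oa at 0.97, H2-DMb2 at 1.47, 1.61 and -0.15, H2-Ob at 1.44 and H2-Eb2 at -0.38. Over all probe sets tested 46.7% had a higher KO mean and 13.2% were higher without overlap. Of the other genes 10 were tested: 3 of 14 probe sets had a higher KO mean, 0 were higher and 2 lower without overlap, and the median was -0.35. Over all single-gene probe sets 12.7% were lower without overlap. Psmb9, Tap1, Psmb8 and Tap2, the peptide supply of class I, stand between H2-DMb1 and H2-Ob in this order and differed by -0.01, 0.04, -0.02 and -0.47 on their brightest probe sets. None of these differences passed (limma, 0% of all probe sets).

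H2-Eb2 and H2-Ea, next to H2-Eb1, did not have a higher KO mean. H2-Eb2 read 46.7, 29.4 and 30.2 in the KO arrays and 32.8, 70.4 and 53.0 in wild type (-0.38 ± 0.34, SE). H2-Ea, which the RefSeq mouse assembly lists as a transcribed pseudogene, had 3 probe sets, all under the filter, with means of 5.93 to 18.5 in KO and 8.77 to 30.3 in wild type.

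**Figure D4:**
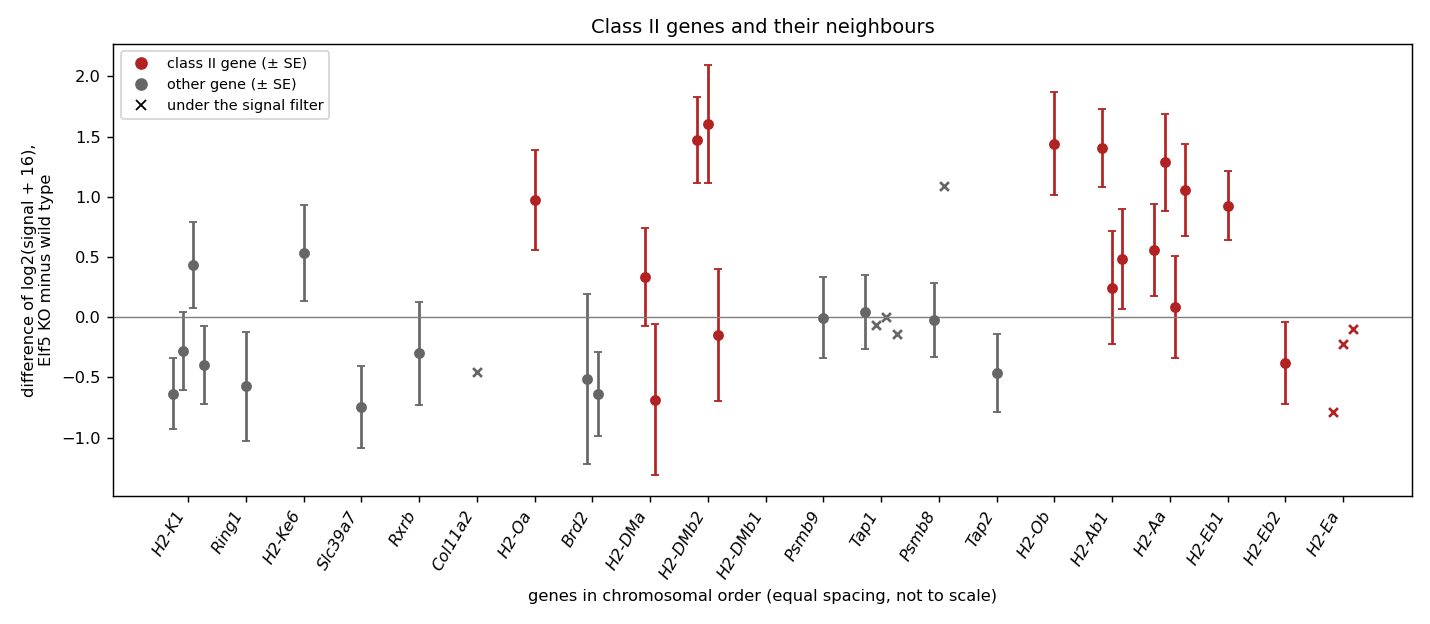
Difference of log2(signal + 16), Elf5 KO minus wild type (y axis, ± SE, n = 3 each), for every probe set of the genes from H2-K1 to H2-Ea in chromosomal order (x axis, equal spacing); class II genes are red, others grey, and crosses lie under the signal filter. Red points, which include those of the members, sit mostly above 0 (13 of 16 tested) and grey points mostly below it (3 of 14 above).

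Other genes listed with the class II pathway were mixed. The list also held Cd80, Cd86 and Cd40, which are costimulatory molecules and not part of class II processing. Of the 12 genes, all tested, 8 had a higher KO mean (median difference 0.78, against -0.06 over all probe sets tested), and 0 passed. Without overlap 5 were higher, where 13.2% of all tested were, and 2 were lower, where 12.7% of all single-gene probe sets were. Cd86 and Cd40 were among the 8 and among the 5, and Cd80 had a lower KO mean. H2-DMb2, the other DM beta chain, read 316, 159 and 345 in the KO arrays and 94.9, 83.1 and 72.9 in wild type (1.47 ± 0.36, adjusted p = 0.137), and its 2 dimmer probe sets differed by 1.61 and -0.15. H2-Ob, a chain of the DO pair that restrains DM in B cells, read 76.2, 58.9 and 191 in the KO arrays and 36.6, 21.8 and 19.9 in wild type (1.44 ± 0.43, adjusted p = 0.168). Marchf1, a ubiquitin ligase that sends class II to degradation, differed by 1.22 ± 0.35 (adjusted p = 0.167).

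The proteases and reductase of the endosome did not share one direction. Ctss, which cuts the invariant chain, averaged 1947 in KO and 1033 in wild type with overlap. Ctsl, a related cathepsin, averaged 4741 in KO and 6427 in wild type, and the thiol reductase Ifi30 averaged 1242 in KO and 1821 in wild type. Both of these were lower without overlap, as were 12.7% of all single-gene probe sets. They differed by -0.45 ± 0.25 and -0.55 ± 0.27 (SE, limma adjusted p = 0.340 and 0.301).

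Factors listed for class II transcription did not share one direction. Of 10, all tested, 6 had a higher KO mean (median 0.14), 0 passed and 2 were higher without overlap, where 13.2% of all tested were. These 2 were Rfx5, a subunit of the X-box complex, at 145, 179 and 179 in the KO arrays and 114, 86.2 and 108 in wild type (0.63 ± 0.29, adjusted p = 0.280), and Irf8, a factor of myeloid and B cells, at 279, 185 and 256 in the KO arrays and 160, 105 and 91.2 in wild type (0.94 ± 0.33, adjusted p = 0.209). Creb1, which can bind the X box, differed by 0.39 ± 0.35 (adjusted p = 0.537).

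The interferon-gamma axis showed no shared direction: of 10 genes measured 7 were tested, 3 with a higher KO mean (median -0.08), and 0 passed. Ifng itself was under the filter. Cxcl9, an interferon-gamma-induced chemokine, read 196, 210 and 205 in the KO arrays and 154, 104 and 160 in wild type (0.52 ± 0.30, adjusted p = 0.360). The receptor chain Ifngr2 differed by -1.17 ± 0.65 (adjusted p = 0.346), with KO array 3 at 15.1, and the kinase Jak2 by 0.33 ± 0.33 (adjusted p = 0.583).

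Class I presentation, the pathway for peptides made inside the cell, leaned to lower values. Of 13 genes, all tested, 9 had a lower KO mean (median -0.45) and 0 passed. Without overlap 0 were lower and 1 was higher, where 13.2% of all tested were higher. B2m, the light chain of class I, read 8254, 6119 and 4087 in the KO arrays and 13655, 8333 and 7314 in wild type (-0.67 ± 0.35, adjusted p = 0.324). The brightest H2-K1 probe set differed by -0.64 ± 0.30 (adjusted p = 0.287), and its dimmer probe sets by -0.28, 0.44 and -0.40. In KO array 1 the median of these 13 was -0.11. Nlrc5, the class I counterpart of Ciita, read 81.6, 102 and 175 in the KO arrays and 73.1, 50.7 and 65.0 in wild type (0.73 ± 0.35, adjusted p = 0.293).

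Markers of white blood cells differed by cell type, and in none of the 9 marker lists did a gene pass the test (limma, 0% of all probe sets). All 6 pan-leukocyte genes had a higher KO mean and 4 were higher without overlap. Over all probe sets tested 46.7% had a higher KO mean and 13.2% were higher without overlap. The summed signal of the 6 was 3856 to 5547 in KO and 1951 to 2329 in wild type. Ptprc, the CD45 phosphatase, read 846, 787 and 1835 in the KO arrays and 352, 281 and 313 in wild type (1.72 ± 0.38, adjusted p = 0.130). Laptm5 and Cd52 differed by 1.99 ± 0.55 and 1.32 ± 0.36 (adjusted p = 0.161 each).

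Of 7 B cell genes measured, 6 were tested. All 6 had a higher KO mean, 3 without overlap (13.2% of all probe sets tested). Their summed signal was 684 to 1284 in KO and 344 to 531 in wild type. Ms4a1, the CD20 antigen, read 231, 138 and 129 in the KO arrays and 81.9, 61.7 and 66.8 in wild type (1.05 ± 0.32, adjusted p = 0.179). Cd79b, of the B cell receptor, differed by 1.01 ± 0.31 and the adaptor Blnk by 1.62 ± 0.32 (adjusted p = 0.180 and 0.116), and Pax5 was under the filter.

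Macrophage genes were split: of 10, 7 had a higher KO mean and 4 were higher without overlap (13.2% of all probe sets tested). Their summed signal was 7852 to 14926 in KO and 4698 to 7084 in wild type. The mannose receptor Mrc1 differed by 1.67 ± 0.30, the complement chain C1qb by 1.41 ± 0.43 and the lysozyme Lyz2 by 1.10 ± 0.33 (adjusted p = 0.112, 0.172 and 0.172). Adgre1 differed by 0.01 ± 0.42, and C1qa by -0.65 ± 0.87, with 1857, 253 and 97.7 in the KO arrays and 788, 609 and 426 in wild type. In KO array 1 the median of the list was 1.42.

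Of 8 dendritic cell genes measured, 7 were tested, 3 with a higher KO mean, and their summed signal overlapped, at 384 to 692 in KO and 392 to 599 in wild type. Ccr7, which guides mature dendritic cells, differed by 1.73 ± 0.52 (adjusted p = 0.169), Cd209a by 0.86 ± 0.49 (0.354) and the lineage factor Zbtb46 by -1.09 ± 0.44 (0.244). Xcr1 was under the filter.

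Of 6 T cell genes measured, 5 were tested, 4 with a higher KO mean, and the sum was 420 to 1336 in KO and 273 to 539 in wild type. Cd3d differed by 1.94 ± 0.53, Cd3g by 0.92 ± 0.40 and Cd2 by 0.36 ± 0.42 (adjusted p = 0.159, 0.270 and 0.635). Cd4 was under the filter, and no marker of these lists was listed at 0 in any array.

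Of 6 plasma cell genes, all tested, 4 had a higher KO mean (median difference 0.72). Without overlap 2 were higher, where 13.2% of all probe sets tested were, and 1 was lower, where 12.7% of all single-gene probe sets were. Their sums ran from 10357 to 12757 in KO and 12348 to 14132 in wild type. Xbp1 was the brightest of them, at 5918 in KO and 10440 in wild type. Mzb1 differed by 0.85 ± 0.34, Sdc1 by 0.96 ± 0.45 and Xbp1, also a factor of secretory epithelium, by -0.81 ± 0.26 (adjusted p = 0.242, 0.288 and 0.185). Fibroblasts make little class II at rest. Of their genes all 8 had a higher KO mean and 3 were higher without overlap (13.2% of all probe sets tested). Their sums were 21387 to 35665 in KO and 11739 to 18838 in wild type. Fap, Dpt and Pdgfra differed by 1.96 ± 0.33, 1.81 ± 0.35 and 1.79 ± 0.37 (adjusted p = 0.107, 0.114 and 0.120).

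Luminal and endothelial sums overlapped. Luminal epithelium gave 15685 to 22596 in KO and 15694 to 22361 in wild type, with Cldn7 at -1.22 ± 0.36, Cldn3 at -0.96 ± 0.52 and Cdh1 at 0.93 ± 0.56 (adjusted p = 0.167, 0.338 and 0.374). Endothelium gave 1427 to 2091 in KO and 1527 to 1752 in wild type, with Esam at 0.50 ± 0.33, Tek at 0.42 ± 0.32 and Pecam1 at -0.49 ± 0.57 (adjusted p = 0.406, 0.466 and 0.642). The part that any of these cell types had in the class II values was not tested.

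**Figure D5:**
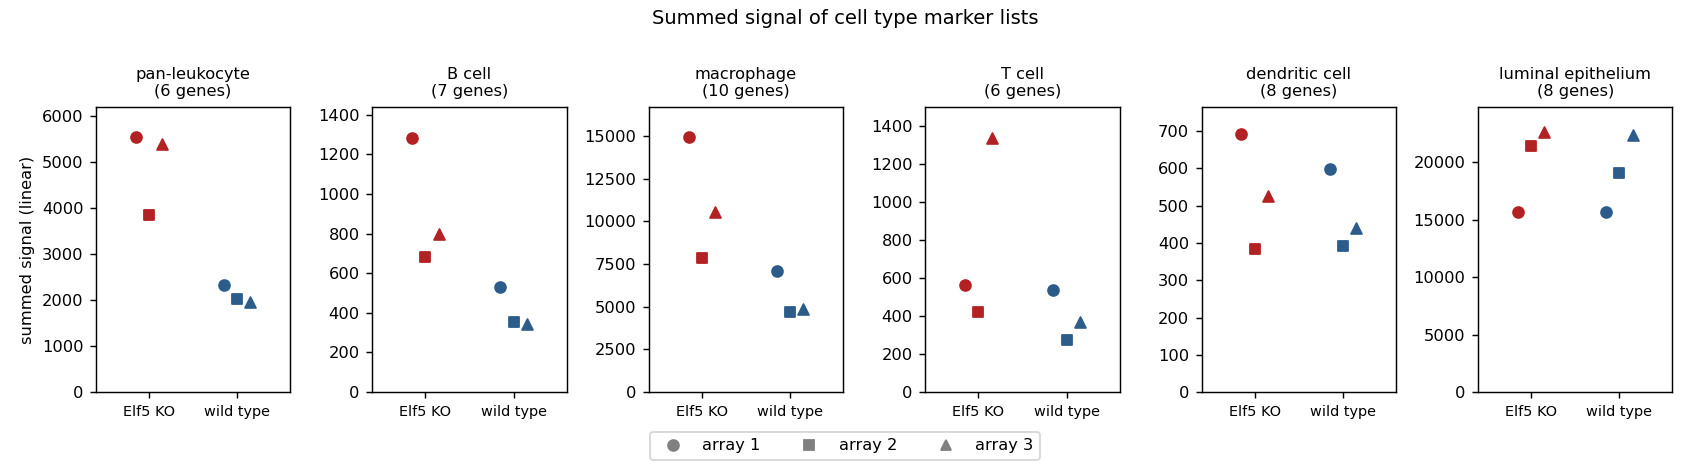
Summed linear signal of 6 of the marker lists (y axis from 0, a scale of its own in each panel) in 3 Elf5 KO arrays (red, left) and 3 wild-type arrays (blue, right), with symbols for the array number. The sums, over the genes measured, stand apart for pan-leukocyte, B cell and macrophage genes, and overlap for T cell, dendritic cell and luminal genes.

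The arrays' own pattern of the class II set was compared with that of every other gene. The centred log2 values, averaged over the brightest probe set of the 6 measured members, were 0.75, 0.09 and 0.22 in KO arrays 1, 2 and 3, and 0.08, -0.58 and -0.56 in wild type. Wild-type array 1 thus sat beside KO array 2. The measure of likeness was the root mean square distance from this pattern over the 6 arrays. The nearest of 12205 genes were AB124611 (0.06), Rab31, a small GTPase of vesicle traffic (0.09), Nckap1l, an actin regulator of blood cells (0.10), and Inpp5d, the SHIP1 phosphatase of blood cells (0.11). Ptgis, which makes prostacyclin, and Adcy3, an adenylyl cyclase, followed at 0.11 and 0.12, and the median gene was at 0.63. Rab31 read 261, 163 and 189.5 in the KO arrays and 148, 93.0 and 82.5 in wild type. Single member probe sets ran from 0.16 for Ciita 1421211_a_at to 0.92 for H2-DMa 1459872_x_at. H2-Eb1 lay at 0.19, Cd74 at 0.23 and H2-Ab1 1450648_s_at at 0.37. The last 3 are part of the averaged pattern, so some of their closeness is built in. The genes named before were picked as the nearest of 12205 and the members were not, so their distances cannot be compared.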

How the data were processed

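Total RNA of 6 mammary gland samples was hybridised to Affymetrix arrays as biotinylated cRNA, 1 array a sample, per the labels' protocols. The authors' deposited values are linear signal intensities for 45101 probe sets, and MAS5 and affy are the programs named in the submitters' processing notes, without version. In each array the mean after trimming 2% at each end is 150.

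Probe sets were named through the platform annotation: 34945 had 1 gene symbol, 932 had several and 9211 were not listed. Entrez numbers changed 0 symbols, and 204 probe sets had no current entry. Control probe sets (64) were left out. Each remaining probe set was 1 feature. Those with a mean signal under the 40th percentile (31.5) were left out of the test, which kept 20967. Values were tested as log2(signal + 16) with limma 3.58.1 in R 4.3.3 (lmFit, eBayes with intensity trend), with Benjamini-Hochberg adjustment over all 20967 and a threshold of 0.05. The fit was tested on simulated data. For a list other than the members, the probe set with the highest mean stood for a gene.

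Replicate numbers come from the sample titles, which do not say that they pair animals. Deviations from the group means correlated at 0.40, 0.29 and 0.27 between arrays of number 1, 2 and 3, each over the limit of 0.1. A fit with the number as a block is therefore given beside the counts. Between arrays of unlike number the correlations ran from -0.46 to 0.20. The highest, for KO array 2 with wild-type array 3, was also over the limit.

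All 7 genes and all lists were chosen with earlier results of these data known. Every member probe set is named. Of each list, the members with the smallest unadjusted p are named where none passed the test, 3 to a list, and others named were picked after their values were seen. Alternatives covered the block, pseudocount, filter, scaling, RNA-quality covariate, trend, 1 probe set per gene and leaving out arrays.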

Additional observations from a re-analysis of the deposited data

How the results depend on the processing

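Under all 17 alternatives 0 member probe sets passed limma's threshold, with a lowest member adjusted p between 0.0610 and 0.434. Replicate numbers as a block gave 1 call in the whole table and moved no member past the threshold. The count over the whole table was 0 in the chosen setting, 1 with the replicate block, 119 with 1 probe set per gene, and 0 to 889 when single arrays were left out (889 without KO array 1). With 1 probe set per gene fewer features were tested, and of the 119 called 111 were higher and 8 lower. The cause of these differences between settings was not tested.

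The median log2 difference of the 14 probe sets, 0.52 in the chosen setting, was 0.35 with a pseudocount of 64, 0.82 with arrays scaled to 1 median, 0.74 with 1 probe set per gene (6 genes), 0.95 with the Gapdh ratio as a covariate and 1.09 in the arrays with a Gapdh ratio under 2. The values with the covariate and with the arrays under 2 are not independent, because the covariate's slope was set mostly by the KO arrays. Scaling to 1 median moved the median of all probe sets tested to 0.24, against -0.06. Leaving out single arrays gave 0.29 to 0.82. The cause of these shifts was not tested.

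Of 230 values of single members under alternatives, 11 had the other sign than in the chosen setting, 5 of them of Ciita 1447075_at. That probe set, untested and at -0.01, was 0.24 with a pseudocount of 1, 0.16 after quantile normalization and 0.11 with arrays scaled to 1 median. Leaving out single arrays gave -0.23 to 0.73 for H2-Ab1 1451721_a_at, -0.32 to 0.53 for H2-Aa 1452431_s_at, -0.063 to 0.60 for H2-DMa 1422527_at, -0.12 to 0.33 for Ciita 1421210_at and -0.18 to 0.26 for Ciita 1447075_at. In the first 4 the negative values came without KO array 1, and for Ciita 1421210_at also without wild-type array 3. Ciita 1447075_at was positive without wild-type array 1 or KO array 2. Ranges that kept their sign but were wide were 0.19 to 0.85 for H2-Ab1 1425477_x_at, 0.29 to 0.90 for H2-Aa 1435290_x_at, -1.31 to -0.10 for H2-DMa 1459872_x_at and 0.40 to 1.00 for Ciita 1421211_a_at. H2-DMa 1459872_x_at was 0.063 in the arrays with a Gapdh ratio under 2, which hold 1 KO array assumed to vary like wild type. The labels give biological replicates and no litters. The p-values measure the spread between these samples, with differences between arrays and in RNA quality included, and 3 arrays a group limit the precision.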
